A study of Homo sapiens with 4 samples.

Results

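SK-Hep-1 is an established human line filed under liver cancer, and it was compared with Hep3B, HepG2 and Huh-7D12, which are 3 further human lines of liver cancer. A gene was taken as higher or lower in SK-Hep-1 when its value was outside the range of these 3 lines by a factor of 2 or more and at least 1 of the 4 lines reached 100 normalized reads. The same rule with a level of 6 in place of 100 was applied to circRNAs, which are closed RNA loops recognised by reads across a back-splice junction. Of 29670 genes in the data, 12835 passed the entry level, and 1746 of these were higher and 1685 lower in SK-Hep-1, 13.6% and 13.1% of the genes that entered. Of 12473 circRNAs, 777 passed the entry level, and 145 were higher and 136 lower, 18.7% and 17.5% of those that entered.

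Each line is represented by 1 library of total RNA, with no treatment named, depleted of ribosomal RNA and not selected for poly(A), so that linear and circular RNA were both read. No further genotype, passage or culture detail is given in the labels. Hep3B, HepG2 and Huh-7D12 are 3 different lines, not replicates of one condition, and SK-Hep-1 has no replicate. An exact permutation test of 1 library against 3 cannot go below a one-sided p of 0.25. The members were chosen from this same contrast, so that their differences are described without a test, and the 95% intervals beside folds cover counting error only. Gene reads numbered 20938569 in SK-Hep-1 and between 18581156 and 24409250 in the other 3 lines. Mitochondrial genes held 34.8% of them in SK-Hep-1, against 17.4% to 47.4% in the others. Back-splice reads numbered 7740 in SK-Hep-1, against 13515 in Huh-7D12, 12916 in Hep3B and 6235 in HepG2.

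Hepatocytes are the parenchymal cells of the liver, which secrete most plasma proteins under the control of transcription factors such as HNF4A and FOXA2. Mesenchymal and endothelial cells instead build and remodel matrix, carry caveolae and contractile fibres, and secrete cytokines and proteases. SK-Hep-1 has been described as a line of endothelial or mesenchymal character, while the other 3 lines are used as models of hepatocytes. CircRNAs arise when a splice donor is joined to an acceptor upstream of it in the same transcript, so that their amount depends on transcription of the host gene as well as on the choice of splice sites.

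The differences ranged from just 2-fold to 37731-fold for APOB, the apolipoprotein B gene, and 20212-fold for MME, the gene of the peptidase neprilysin. Folds are given to the nearest of the other 3 lines, and against a library with 0 reads as "at least", with a floor of 3 reads per library. The median fold was 4.51 among the genes higher in SK-Hep-1 and 4.02 among those lower. At least 10-fold was reached by 588 genes higher and 486 lower, and at least 100-fold by 208 and 122. All 3 other lines had 0 reads for 135 of the genes higher in SK-Hep-1, and SK-Hep-1 had 0 reads for 470 of the genes lower in it. For 139 of these 470 genes the bound lay under 2-fold, because the nearest line had few reads. P3H2, VSIG10 and YBEY lay just inside the limit on the higher side, between 2.0003-fold and 2.0025-fold, and CEP164, CMSS1 and GSTM1 just outside it, between 1.9989-fold and 1.9997-fold. On the lower side PHACTR2, POLE3 and STXBP4 were just inside (2.0003-fold to 2.0022-fold) and ZCCHC10, C9orf3 and NAPRT just outside (1.996-fold to 1.9982-fold).

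**Figure D1:**
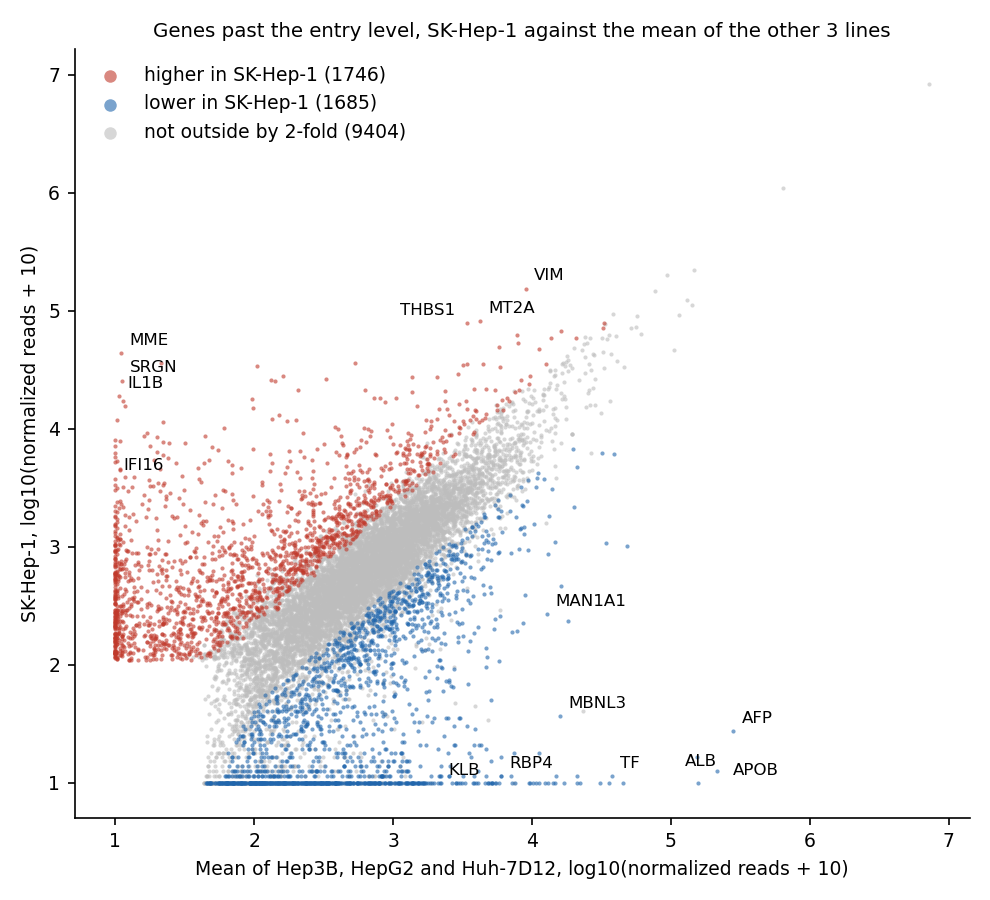
Level of each of the 12835 genes past the entry level, with SK-Hep-1 on the vertical and the mean of Hep3B, HepG2 and Huh-7D12 on the horizontal axis, both as log10 of normalized reads plus 10. Each point is a gene, red where higher in SK-Hep-1 (1746), blue where lower (1685) and grey otherwise (9404); VIM, MME and SRGN lie far above the cloud and ALB, APOB and AFP far below it.

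Log2 differences are given between SK-Hep-1 and the mean of the other 3 lines on a scale of log2(value + 10), which understates the change of low genes. Over all genes that entered, their median was 0.03. The SD of the 3 other lines on that scale had a median of 0.55 over all genes. It was 0.55 over the genes higher in SK-Hep-1 and 0.72 over those lower. Measured in each gene's own SD, 1254 of the 1746 and 1065 of the 1685 lay at least 3 SDs from the mean of the 3. The 135 genes with 0 reads in all 3 lines have an SD of 0 and count among the 1254. Members were chosen for lying outside these same 3 values, so both counts follow in part from the choice. A limma fit with the spread of the 3 lines as its error gave 358 genes higher and 142 lower at an adjusted p under 0.05. The same contrast tested on the recovered whole reads gave 0 and 0 with edgeR (967 and 1058 at an unadjusted p under 0.05) and 613 and 1221 with DESeq2. Without Hep3B, HepG2 or Huh-7D12, limma gave 0 and 0 each time (922 to 1158 and 734 to 1102 at an unadjusted p under 0.05). No gene below is called on these tests.

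A list of 27 hepatocyte markers, chosen with earlier results of these data known, was compared by the same rule. Its counts are no independent check that the other 3 lines are hepatocyte-like. Of the 27 markers 25 passed the entry level. Of these, 24 were lower in SK-Hep-1 and 0 higher, with a median log2 difference of -7.28, beside 13.1% lower over all genes. For every list below, the shares over all genes that entered are 13.6% higher and 13.1% lower. The remaining measured marker, NR1I2, was not outside the range by 2-fold, and CYP8B1 and NR1I3 did not reach the entry level. Values of single genes are given in normalized reads. The markers summed to 1112 in SK-Hep-1, against 427326 in Huh-7D12, 926676 in Hep3B and 797811 in HepG2. TTR, which encodes the thyroxine and retinol carrier transthyretin, had 0 in SK-Hep-1, against 18496 in Huh-7D12, 7173 in Hep3B and 8194 in HepG2, and was at least 1776-fold lower. ASGR2, a subunit of the hepatocyte receptor for desialylated glycoproteins, had 0 in SK-Hep-1, against 4272 in Huh-7D12, 6779.9 in Hep3B and 5424 in HepG2. SERPINA1, the gene of alpha-1-antitrypsin, kept a measurable level, with 1012 in SK-Hep-1, against 30773 in Huh-7D12, 44836 in Hep3B and 69853 in HepG2, and was 30.4-fold (28.3 to 32.7) lower. SK-Hep-1 was thus below every other line for TTR, ASGR2 and SERPINA1, and the other 3 lines all expressed these 3 genes.

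Markers of other liver cell types were present in part. Of 28 endothelial markers in the data 9 passed the entry level, and 4 were higher (44.4%) and 1 lower (11.1%) in SK-Hep-1. Over all genes these shares were 13.6% and 13.1%. All 4 higher markers passed the entry level in SK-Hep-1 alone, with at most 37.7 in any other line. Entry thus fixed their direction, so the share of 44.4% cannot show whether endothelial markers were higher as a set. Of the 28 markers in the data, 4 were higher. S1PR1, a sphingosine phosphate receptor, had 2747 in SK-Hep-1, against 10.8 in Huh-7D12, 7.12 in Hep3B and 0 in HepG2. FLI1, an ETS transcription factor, had 980.0 in SK-Hep-1, against 20.5 in Hep3B and 0 in HepG2 and Huh-7D12. ENG, a coreceptor of TGF-beta, had 860.1 in SK-Hep-1, against 0 in Huh-7D12, 0.890 in Hep3B and 37.7 in HepG2. ROBO4 had 419 in SK-Hep-1, against 29.3 in HepG2 and 0 in Hep3B and Huh-7D12. The lower one was TAL1, a transcription factor of blood and endothelial cells, with 0 in SK-Hep-1, against 102 in Huh-7D12, 0.890 in Hep3B and 2.79 in HepG2, which met the rule on 1 read in Hep3B, so that no fold is given for it. The list summed to 5676 in SK-Hep-1, against 989 in Huh-7D12, 278 in Hep3B and 570 in HepG2. The defining endothelial genes PECAM1, CDH5, KDR and ERG had 0 reads in SK-Hep-1, and TEK and VWF had 1.35 normalized reads each, which is 1 read. Among the leukocyte and Kupffer cell markers, CD163, CD3D, CD79A and AIF1 were at 0 in SK-Hep-1 and PTPRC, the common leukocyte antigen, at 1.35. Of 15 such markers in the data 3 passed the entry level. HLA-DRA, which many activated cells also express, was higher. LYZ, the lysozyme gene, was lower, with 1.35 in SK-Hep-1, against 1475 in Huh-7D12, 1460.3 in Hep3B and 60302 in HepG2. Of 9 measured stellate cell markers 2 were higher (22.2%) and 4 lower (44.4%), and DES and HAND2 were at 0. Among 13 measured cholangiocyte markers KRT7 was higher, with 755 in SK-Hep-1, against 3.25 in Huh-7D12, 1.78 in Hep3B and 0 in HepG2, 5 were lower, and KRT19 was not outside the range by 2-fold (7932 in SK-Hep-1, against 6266 in Huh-7D12, 2611 in Hep3B and 4766 in HepG2). Of 27 measured fibroblast and mesenchymal markers 18 were higher and 2 lower, with a median of 4.43, while COL1A2, PDGFRA, PRRX1 and CDH11 were at 0 in SK-Hep-1. In RNA of a whole culture, fewer expressing cells and less RNA per cell cannot be told apart.

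Of 27 housekeeping genes 26 were not outside the range by 2-fold, a limit that cannot show a smaller shift of scale. The exception was B2M, the light chain of MHC class I, with 21287 in SK-Hep-1, against 7783 in Huh-7D12, 8009 in Hep3B and 8344 in HepG2. The median log2 difference of the 27 genes was 0.23, beside 0.03 over all genes. Their values summed to 606886 in SK-Hep-1, against 437546 in Huh-7D12, 331130 in Hep3B and 385073 in HepG2, so that SK-Hep-1 had the largest sum.

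**Figure D2:**
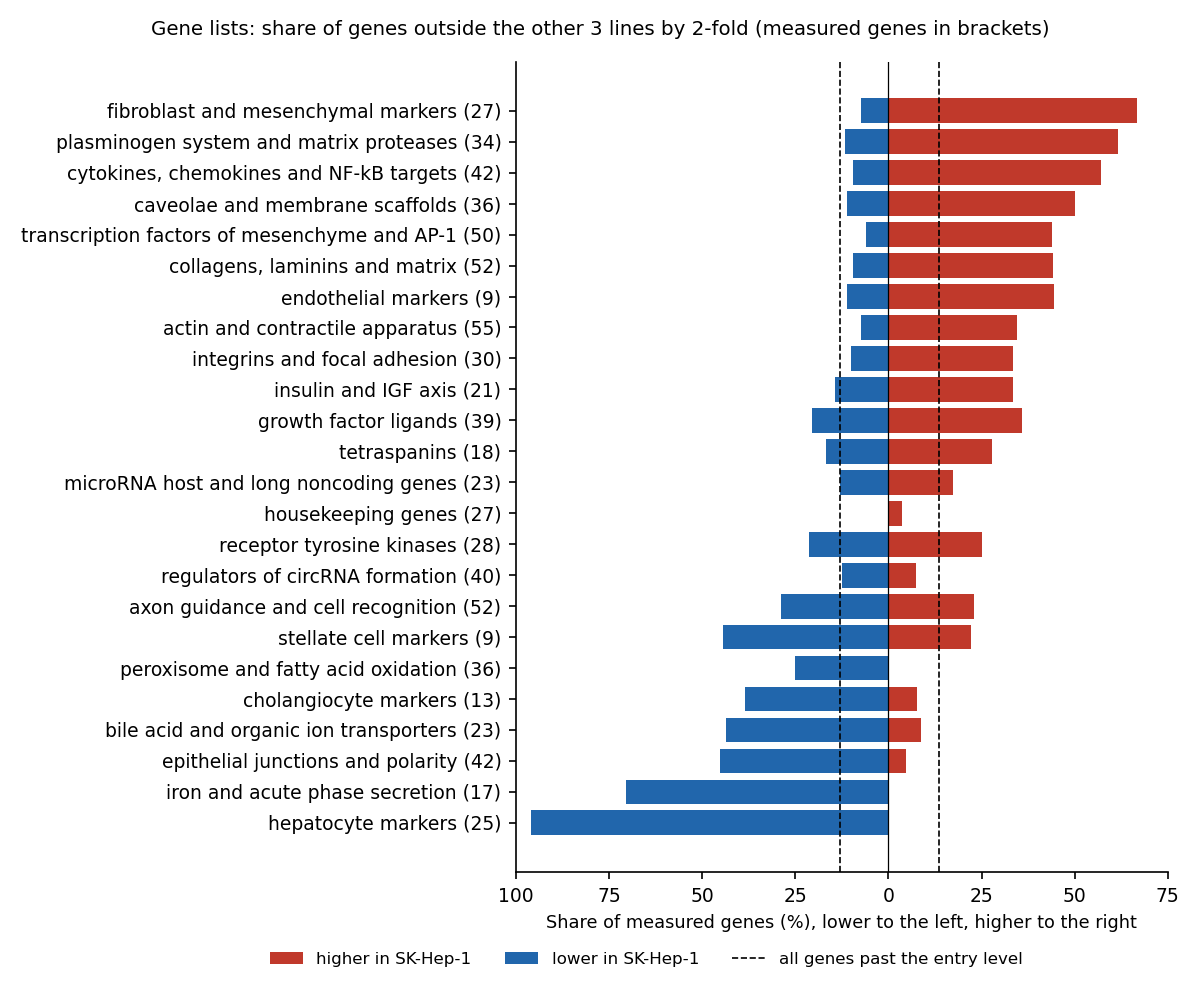
Share of the measured genes of each list that lay outside the other 3 lines by 2-fold, in percent, with genes higher in SK-Hep-1 in red to the right and genes lower in blue to the left. The endothelial markers counted as higher passed the entry level in SK-Hep-1 alone, which fixed their direction. Lists with at least 9 measured genes are shown with that number in brackets, and the dashed lines mark the shares over all genes past the entry level, 13.6% and 13.1%; 66.7% of fibroblast and mesenchymal markers were higher and 96.0% of hepatocyte markers lower.

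Beyond the markers, several genes of hepatocyte secretion and transport were lower in SK-Hep-1. Of 17 measured genes of iron handling and acute phase secretion, 12 were lower and 0 higher, with a median of -4.40. The other 5 were not outside the range by 2-fold. The whole list differed less in sum, with 127316 in SK-Hep-1, against 149650 in Huh-7D12, 144717 in Hep3B and 209475 in HepG2. AGT, which encodes angiotensinogen, had 0 in SK-Hep-1, against 4249 in Huh-7D12, 14781 in Hep3B and 9933 in HepG2, and was at least 1052-fold lower. ORM1 and ORM2, the paired genes of orosomucoid, an acute phase glycoprotein, had 0 reads in SK-Hep-1. ORM1 reached 6942 in Huh-7D12, 3133 in Hep3B and 7283 in HepG2. These 2 genes are near-identical copies, so that reads may be split between them. CP, the gene of the copper ferroxidase ceruloplasmin, had 6.73 in SK-Hep-1, against 314 in Huh-7D12, 6697 in Hep3B and 10996 in HepG2. FGL1, a fibrinogen-like secreted protein, had 0 in SK-Hep-1, against 517 in Huh-7D12, 5189 in Hep3B and 5725 in HepG2. SK-Hep-1 lay below all 3 lines for each, although Huh-7D12 was itself well below Hep3B and HepG2 for CP and FGL1.

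Transporters of bile acids and organic ions followed in part, with 10 of 23 measured genes lower, 2 higher and a median of -1.78. Their list summed to 8125 in SK-Hep-1, against 9787 in Huh-7D12, 10436 in Hep3B and 18673 in HepG2. ABCB1, the multidrug exporter P-glycoprotein, had 5.38 in SK-Hep-1, against 767 in Huh-7D12, 597 in Hep3B and 1081 in HepG2, and was 111-fold (43.1 to 408) lower. ABCB4, which moves phospholipid into bile, had 0 in SK-Hep-1, against 154 in Huh-7D12, 258 in Hep3B and 328 in HepG2. SLCO2B1, an uptake transporter of organic anions, had 2.69 in SK-Hep-1, against 316 in Huh-7D12, 131 in Hep3B and 357 in HepG2. The 2 genes on the other side were ATP8B1 and SLC10A3. ATP8B1, a phospholipid flippase, had 2432 in SK-Hep-1, against 302 in Huh-7D12, 568 in Hep3B and 241 in HepG2. SLC10A3 had 514 in SK-Hep-1, against 146 in Huh-7D12, 121 in Hep3B and 215 in HepG2. Peroxisomal and fatty acid oxidation genes differed less. Of 36 measured, 9 were lower and 0 higher, and the median was -0.75. PPARGC1A, a coactivator that raises mitochondrial and gluconeogenic genes, had 1.35 in SK-Hep-1, against 317 in Huh-7D12, 588 in Hep3B and 1189.6 in HepG2, and was 236-fold (41.99 to 9344) lower, whereas HSD17B4, of peroxisomal oxidation, was 2.36-fold (2.22 to 2.52) lower.

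Epithelial junction and polarity genes were lower for 19 of 42 measured members and higher for 2, with a median of -2.21. CDH1, which encodes E-cadherin, had 0 in SK-Hep-1, against 182 in Huh-7D12, 2386 in Hep3B and 301 in HepG2. EPCAM, an epithelial adhesion molecule, had 10.8 in SK-Hep-1, against 487 in Huh-7D12, 2945 in Hep3B and 1239.8 in HepG2. MAL2, of apical transport, had 8.08 in SK-Hep-1, against 2708 in Huh-7D12, 5408 in Hep3B and 2353 in HepG2. ESRP2, a splicing regulator of epithelial cells, had 8.08 in SK-Hep-1, against 260.0 in Huh-7D12, 629 in Hep3B and 918 in HepG2, and was 32.2-fold (14.6 to 88.6) lower. GRHL1, a transcription factor of epithelial genes, was 40.1-fold (18.2 to 110.1) lower. SK-Hep-1 was the lowest line for all 5. On the other side stood KRT7 and the claudin gene CLDN7, with 580.2 in SK-Hep-1, against 20.6 in Huh-7D12, 8.90 in Hep3B and 0 in HepG2, so that the list was not uniformly low.

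Secreted signals of inflammation were among the groups with the largest share higher in SK-Hep-1. Of 42 measured cytokine, chemokine and NF-kB target genes, 24 were higher and 4 lower (57.1% and 9.52%), with a median of 2.32. IL1A (ENSG00000115008, chr2:112773915-112784590), which encodes interleukin 1 alpha, had 7118 in SK-Hep-1, against 0 in Huh-7D12, Hep3B and HepG2, and was at least 1701-fold higher. CSF3, the gene of granulocyte colony-stimulating factor, had 1198 in SK-Hep-1, against 1.08 in Huh-7D12 and 0 in Hep3B and HepG2. CCL2, which attracts monocytes, had 1221 in SK-Hep-1, against 0 in Huh-7D12, Hep3B and HepG2. CCL5 had 425 in SK-Hep-1, against 2.17 in Huh-7D12, 0 in Hep3B and 2.79 in HepG2. All 4 were at or near 0 in the other 3 lines. The 4 genes on the lower side were CCL20, CXCL16, IL1RAP and IL6R, of which CCL20, which attracts cells with CCR6, had 40.4 in SK-Hep-1, against 4702 in Huh-7D12, 3216 in Hep3B and 7173 in HepG2, and was 79.6-fold (55.7 to 118) lower. IL6R, the ligand-binding chain of the IL-6 receptor, had 171 in SK-Hep-1, against 701 in Huh-7D12, 430.1 in Hep3B and 750.3 in HepG2, while IL6 itself was higher by 3934-fold (1536 to 14442).

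The plasminogen system and the matrix proteases had 21 of 34 measured genes higher and 4 lower, with a median of 3.25. PLAT and PLAU encode the tissue and the urokinase-type activators that turn plasminogen into plasmin. PLAT had 11400.0 in SK-Hep-1, against 4.33 in Huh-7D12, 3.56 in Hep3B and 27.9 in HepG2, and was 409-fold (264 to 669) higher. PLAU had 4604 in SK-Hep-1, against 60.7 in Huh-7D12, 5.34 in Hep3B and 22.3 in HepG2, and was 75.9-fold (58.3 to 101) higher. SERPINB2, an inhibitor of both activators, had 1277 in SK-Hep-1, against 2.17 in Huh-7D12 and 0 in Hep3B and HepG2. SK-Hep-1 was thus the highest line for the activators and for this inhibitor. The substrate gene PLG had 0 in SK-Hep-1, against 158 in Huh-7D12, 43.6 in Hep3B and 13.9 in HepG2. SERPINF2, which encodes the plasmin inhibitor alpha-2-antiplasmin, was at least 796-fold lower. On the anticoagulant side of the cell surface, THBD, which encodes thrombomodulin, had 551 in SK-Hep-1, against 5.42 in Huh-7D12 and 0 in Hep3B and HepG2. PROCR, the receptor of protein C, had 2709.7 in SK-Hep-1, against 17.3 in Huh-7D12, 0.890 in Hep3B and 20.9 in HepG2. MMP24, a membrane-type metalloprotease, was 59.5-fold (31.1 to 131) higher. ADAMTS9 was lower on 1 read in SK-Hep-1, with 1.35 in SK-Hep-1, against 576 in Huh-7D12, 1766 in Hep3B and 2.79 in HepG2, and the nearest line, HepG2, had few reads too.

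Matrix genes were split by kind. Of 52 measured collagens, laminins and other matrix genes, 23 were higher and 5 lower, with a median of 1.61. COL4A1 and COL4A2 form the network collagen of basement membranes. COL4A1 had 2086 in SK-Hep-1, against 8.67 in Huh-7D12, 12.5 in Hep3B and 0 in HepG2. COL4A2 was 401-fold (194 to 999) higher. LAMA1, a laminin chain, had 1512 in SK-Hep-1, against 0 in Huh-7D12, Hep3B and HepG2, and was at least 361-fold higher, while another laminin chain gene, LAMA5, had 236 in SK-Hep-1, against 798 in Huh-7D12, 1217 in Hep3B and 2178 in HepG2, and was 3.39-fold (2.87 to 4.02) lower. THBS1 (ENSG00000137801, chr15:39581079-39599466), which encodes the adhesive glycoprotein thrombospondin 1, had 78046 in SK-Hep-1, against 1428 in Huh-7D12, 4501 in Hep3B and 4192 in HepG2, and was 17.3-fold (16.8 to 17.8) higher. The lower genes included those of the proteoglycans GPC6 and SDC2. GPC6 had 55.2 in SK-Hep-1, against 1398 in Huh-7D12, 4587 in Hep3B and 2025 in HepG2. SDC2 had 10.8 in SK-Hep-1, against 1729.9 in Huh-7D12, 5765 in Hep3B and 5325 in HepG2. NID1, which links laminin to type IV collagen, had 953 in SK-Hep-1, against 5959 in Huh-7D12, 11603 in Hep3B and 6672 in HepG2. SK-Hep-1 was the lowest line for these 3 genes and for GPC3.

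Actin and contractile genes were higher for 19 of 55 measured members and lower for 4, with a median of 1.12. MSN, which encodes moesin, a linker of actin to the membrane, had 21295 in SK-Hep-1, against 1.08 in Huh-7D12, 1841 in Hep3B and 4.18 in HepG2, and was 11.6-fold (11.1 to 12.1) higher than Hep3B, the single other line with more than a few reads. TPM1, a tropomyosin that coats actin filaments, had 27363 in SK-Hep-1, against 1155 in Huh-7D12, 1274 in Hep3B and 1629 in HepG2, and was 16.8-fold (15.8 to 17.8) higher. The myosin regulatory light chain gene MYL9 had 2124 in SK-Hep-1, against 162 in Huh-7D12, 182 in Hep3B and 177 in HepG2, and its kinase gene MYLK had 8562 in SK-Hep-1, against 667 in Huh-7D12, 761 in Hep3B and 1388 in HepG2. For TPM1 and MYL9 the other 3 lines lay close together and SK-Hep-1 stood well above them. MYH10, which encodes the heavy chain of nonmuscle myosin IIB, went the other way, with 451 in SK-Hep-1, against 3786 in Huh-7D12, 6963 in Hep3B and 4268 in HepG2, and was 8.40-fold (7.50 to 9.42) lower. ACTA2, the smooth muscle actin, was not outside the range by 2-fold, with 915 in SK-Hep-1, against 1.08 in Huh-7D12, 0 in Hep3B and 675 in HepG2.

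Caveolae are small invaginations of the plasma membrane built from caveolins and cavins. In the list of caveolae, annexins and S100 proteins 18 of 36 measured genes were higher and 4 lower, with a median of 1.99. CAV1, the main caveolin, had 21111 in SK-Hep-1, against 429 in Huh-7D12, 157 in Hep3B and 1.39 in HepG2, and was 49.2-fold (44.5 to 54.5) higher. CAVIN3, of the cavin coat, had 946 in SK-Hep-1, against 1.39 in HepG2 and 0 in Hep3B and Huh-7D12. EHD2, which sits at the neck of caveolae, had 1318 in SK-Hep-1, against 3.25 in Huh-7D12, 131 in Hep3B and 13.9 in HepG2. ANXA1, a phospholipid-binding annexin, had 12035 in SK-Hep-1, against 368 in Huh-7D12, 0 in Hep3B and 4.18 in HepG2. EMP1, an epithelial membrane protein gene, had 7716 in SK-Hep-1, against 29.2 in Huh-7D12, 0 in Hep3B and 6.97 in HepG2. HepG2 was low for CAV1 and ANXA1, and Huh-7D12 was the nearest line for both. The 4 lower genes were ANXA3, S100A4, S100A14 and S100P. S100A4, often used as a fibroblast marker, had 0 in SK-Hep-1, against 221 in Huh-7D12, 0.890 in Hep3B and 79.5 in HepG2, and met the rule on 1 read in Hep3B, so that no fold is given for it.

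Integrins carry cells on matrix, and 10 of 30 measured integrin and focal adhesion genes were higher and 3 lower, with a median of 1.33. ITGA3, a laminin-binding chain, had 34363 in SK-Hep-1, against 231 in Huh-7D12, 12.5 in Hep3B and 41.8 in HepG2, and was 149-fold (130.1 to 171) higher. ITGA4, which binds VCAM1 and fibronectin, had 2182 in SK-Hep-1, against 2.17 in Huh-7D12, 1.78 in Hep3B and 0 in HepG2. TGFB1I1, a focal adhesion adaptor also called Hic-5, had 907 in SK-Hep-1, against 31.4 in Huh-7D12, 4.45 in Hep3B and 44.6 in HepG2. ITGA1, a collagen-binding chain, stood lower with 384 in SK-Hep-1, against 4494 in Huh-7D12, 3074 in Hep3B and 881 in HepG2. TNS1, which links integrins to actin, had 0 in SK-Hep-1, against 464 in Huh-7D12, 236 in Hep3B and 1637 in HepG2. NEDD9, a scaffold of focal adhesions, had 25.6 in SK-Hep-1, against 233 in Huh-7D12, 2139.8 in Hep3B and 6709.7 in HepG2, and was 9.11-fold (5.69 to 15.4) lower. Tetraspanins organise adhesion receptors in the membrane, and 5 of 18 measured genes were higher and 3 lower, with a median of 1.41. These shares were 27.8% and 16.7%, beside 13.6% and 13.1% over all genes, so that the lower share was near that of all genes. CD82 had 989 in SK-Hep-1, against 57.4 in Huh-7D12, 88.2 in Hep3B and 1.39 in HepG2. CD9 had 3815 in SK-Hep-1, against 854 in Huh-7D12, 0 in Hep3B and 241 in HepG2. TSPAN7 had 0 in SK-Hep-1, against 120.2 in Huh-7D12, 29.4 in Hep3B and 165 in HepG2. TSPAN4, one of the 5, was no longer outside by 2-fold under either other scaling.

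**Figure D3:**
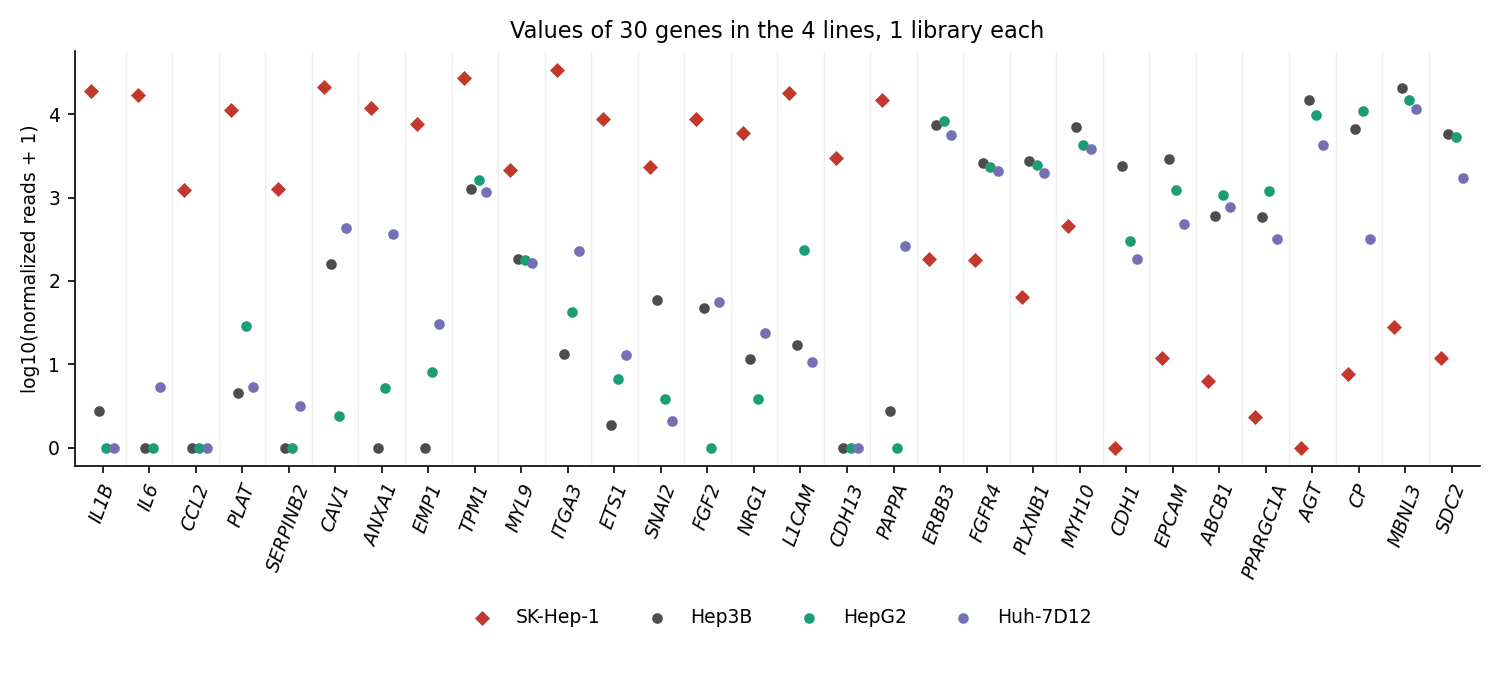
Values of 30 named genes in the 4 lines, as log10 of normalized reads plus 1, with SK-Hep-1 as red diamonds left of Hep3B, HepG2 and Huh-7D12 as circles. Each point is 1 library; SK-Hep-1 is the highest line for the 18 genes from IL1B to PAPPA and the lowest for the 12 from ERBB3 to SDC2, with no overlap, as the choice of members requires.

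Transcription factors of mesenchyme and of the AP-1 family were higher for 22 of 50 measured genes and lower for 3, with a median of 1.18. ETS1 (ENSG00000134954, chr11:128458761-128587558), an ETS factor of endothelial and lymphoid cells, had 8733 in SK-Hep-1, against 11.9 in Huh-7D12, 0.890 in Hep3B and 5.58 in HepG2, and was 733-fold (409 to 1469) higher. SNAI2, a repressor of E-cadherin also called Slug, had 2306 in SK-Hep-1, against 1.08 in Huh-7D12, 57.9 in Hep3B and 2.79 in HepG2. FOXD1, a forkhead factor of stromal cells, had 917 in SK-Hep-1, against 1.08 in Huh-7D12, 0 in Hep3B and 5.58 in HepG2. FOXF2 had 225 in SK-Hep-1, against 2.17 in Huh-7D12 and 0 in Hep3B and HepG2. TWIST1 had 135 in SK-Hep-1, against 0 in Huh-7D12, Hep3B and HepG2. GLI2, an effector of Hedgehog signalling, had 171 in SK-Hep-1, against 0 in Huh-7D12, Hep3B and HepG2. The 3 lower genes were FOS, HEY1 and SNAI1. SNAI1, the Snail repressor related to SNAI2, had 0 in SK-Hep-1, against 177 in Huh-7D12, 37.4 in Hep3B and 116 in HepG2. SNAI1 and SNAI2 thus lay on opposite sides. FOS had 169.6 in SK-Hep-1, against 359 in Huh-7D12, 588 in Hep3B and 340.3 in HepG2, just past the limit. TWIST1, GLI2, SNAI1 and HEY1 stayed below the stricter entry level of 200 in every line.

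Growth factor ligands and their receptors differed gene by gene. Of 39 measured ligand genes 14 were higher and 8 lower, with a median of 0.87. FGF2, the basic fibroblast growth factor, had 8682 in SK-Hep-1, against 55.2 in Huh-7D12, 46.3 in Hep3B and 0 in HepG2. NRG1, the ligand of ERBB3 and ERBB4, had 5949.7 in SK-Hep-1, against 22.7 in Huh-7D12, 10.7 in Hep3B and 2.79 in HepG2, and was 262-fold (171 to 423) higher. GAS6, the ligand of AXL, had 1151 in SK-Hep-1, against 2.17 in Huh-7D12 and 0 in Hep3B and HepG2. BDNF, a neurotrophin, had 1792 in SK-Hep-1, against 6.50 in Huh-7D12, 0.890 in Hep3B and 0 in HepG2. FGF5 had 1031 in SK-Hep-1, against 0 in Huh-7D12, Hep3B and HepG2. Among the lower ligand genes were CLU, which encodes the secreted chaperone clusterin, with 215 in SK-Hep-1, against 7888 in Huh-7D12, 13114 in Hep3B and 4724 in HepG2. BMP4 was lower too, with 48.5 in SK-Hep-1, against 331 in Huh-7D12, 262 in Hep3B and 4563 in HepG2. AREG, an EGFR ligand, was also lower, with 26.9 in SK-Hep-1, against 266 in Huh-7D12, 110.4 in Hep3B and 191 in HepG2.

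Of 28 measured receptor tyrosine kinases 7 were higher and 6 lower, and the median of 0.07 was near that of all genes. EGFR had 11046 in SK-Hep-1, against 4803 in Huh-7D12, 3937 in Hep3B and 930.2 in HepG2, and was 2.30-fold (2.22 to 2.39) higher. NTRK3, the receptor of neurotrophin 3, had 219 in SK-Hep-1, against 0 in Huh-7D12, Hep3B and HepG2. EPHA4 had 773 in SK-Hep-1, against 0 in Huh-7D12, Hep3B and HepG2. ERBB3 had 180.4 in SK-Hep-1, against 5692 in Huh-7D12, 7439 in Hep3B and 8325 in HepG2, and was 31.6-fold (26.6 to 37.7) lower. The fibroblast growth factor receptors FGFR3 and FGFR4 were lower too: FGFR3 had 4.04 in SK-Hep-1, against 1512 in Huh-7D12, 2764 in Hep3B and 2357 in HepG2. FGFR4, the receptor of FGF19 in liver, had 176 in SK-Hep-1, against 2075 in Huh-7D12, 2612 in Hep3B and 2299.8 in HepG2. The FGF19 coreceptor gene KLB had 0 in SK-Hep-1, against 2200.0 in Huh-7D12, 2409.6 in Hep3B and 1920.4 in HepG2. The ligand NRG1 and its receptor ERBB3 thus lay on opposite sides in SK-Hep-1, while GAS6 and AXL were both higher.

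In the insulin-like growth factor axis 7 of 21 measured genes were higher and 3 lower, with a median of 0.78. The genes of the binding proteins IGFBP3, IGFBP4, IGFBP5, IGFBP6 and IGFBP7 were all among the higher ones. IGFBP3 had 9672 in SK-Hep-1, against 668 in Huh-7D12, 1915 in Hep3B and 79.5 in HepG2. IGFBP6 had 1684 in SK-Hep-1, against 104 in Huh-7D12, 4.45 in Hep3B and 141 in HepG2. PAPPA, a protease that cleaves IGFBP4, had 14904 in SK-Hep-1, against 264 in Huh-7D12, 1.78 in Hep3B and 0 in HepG2, and was 56.4-fold (49.7 to 64.3) higher. STC1, an inhibitor of PAPPA, had 1714 in SK-Hep-1, against 0.890 in Hep3B and 0 in HepG2 and Huh-7D12. On the lower side IGF2 had 9.42 in SK-Hep-1, against 71.5 in Huh-7D12, 1581 in Hep3B and 442 in HepG2. IGF2BP1, an oncofetal RNA-binding protein, had 2208 in SK-Hep-1, against 9694 in Huh-7D12, 7053 in Hep3B and 8941 in HepG2. GRB14, an adaptor that inhibits the insulin receptor, had 21.5 in SK-Hep-1, against 1349.7 in Huh-7D12, 1176 in Hep3B and 73.9 in HepG2.

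Axon guidance and cell recognition genes were found on both sides, with 12 of 52 measured genes higher, 15 lower and a median of -0.22. These shares were 23.1% and 28.8%, beside 13.6% and 13.1% over all genes. CDH13, a cadherin anchored by a lipid, had 2998 in SK-Hep-1, against 0 in Huh-7D12, Hep3B and HepG2. L1CAM, a neural adhesion molecule, had 17845 in SK-Hep-1, against 9.75 in Huh-7D12, 16.03 in Hep3B and 233 in HepG2. The secreted semaphorin gene SEMA3C had 6769 in SK-Hep-1, against 48.7 in Huh-7D12, 192 in Hep3B and 22.3 in HepG2. SLIT3, a ligand of ROBO receptors, had 526 in SK-Hep-1, against 1.39 in HepG2 and 0 in Hep3B and Huh-7D12. In contrast the semaphorin receptor gene PLXNB1 had 63.3 in SK-Hep-1, against 1994 in Huh-7D12, 2777 in Hep3B and 2456 in HepG2, and was 31.5-fold (23.6 to 43.1) lower. PLXNA2 was 30.9-fold (16.01 to 68.2) lower. The membrane-bound semaphorin genes SEMA4G and SEMA6A were lower as well. SEMA4G had 101 in SK-Hep-1, against 2012 in Huh-7D12, 1337 in Hep3B and 3005 in HepG2. SEMA6A had 2.69 in SK-Hep-1, against 798 in Huh-7D12, 326 in Hep3B and 1496 in HepG2.

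Among the genes chosen outside the lists, by the size of the fold, by the moderated t or by the level, several had no or almost no reads in the other 3 lines. SRGN (ENSG00000122862, chr10:69088106-69104811), the proteoglycan serglycin of secretory granules, had 25545 in SK-Hep-1, against 3.25 in Huh-7D12 and 0 in Hep3B and HepG2. G0S2, an inhibitor of adipose triglyceride lipase, had 7932 in SK-Hep-1, against 2.67 in Hep3B and 0 in HepG2 and Huh-7D12. IFI16, a sensor of DNA in the nucleus and cytosol, had 3762 in SK-Hep-1, against 0 in Huh-7D12, Hep3B and HepG2. PXDN, a peroxidase that cross-links type IV collagen, had 6258 in SK-Hep-1, against 0 in Huh-7D12, Hep3B and HepG2. CLMP, an adhesion molecule of the immunoglobulin family, had 5341 in SK-Hep-1, against 1.08 in Huh-7D12 and 0 in Hep3B and HepG2. CCBE1, which acts in lymphatic vessel growth, had 4464 in SK-Hep-1, against 2.17 in Huh-7D12 and 0 in Hep3B and HepG2. PSG5, of the pregnancy-specific glycoproteins, had 5748 in SK-Hep-1, against 0 in Huh-7D12, Hep3B and HepG2, and reads of this gene may be shared with its near-identical relatives. Among the highest values in SK-Hep-1, MT2A, a metallothionein, had 81506 in SK-Hep-1, against 5168 in Huh-7D12, 182 in Hep3B and 7348 in HepG2. Of ribosomal protein genes, RPL10 had 67413 in SK-Hep-1, against 17879.5 in Huh-7D12, 8875 in Hep3B and 21808 in HepG2. RPL30 had 78735 in SK-Hep-1, against 34481 in Huh-7D12, 33870.0 in Hep3B and 30908 in HepG2. RPL4 had 70910.5 in SK-Hep-1, against 34531 in Huh-7D12, 28323 in Hep3B and 34311 in HepG2. RPL30 and RPL4 were no longer outside by 2-fold when totals outside mitochondrial genes were made equal, which shifted the median of all genes by -0.17.

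On the lower side the genes chosen by fold included several of secreted plasma proteins. A2M, a broad protease inhibitor of plasma, had 0 in SK-Hep-1, against 29975 in Huh-7D12, 13909 in Hep3B and 64315 in HepG2. AMBP, which encodes alpha-1-microglobulin and bikunin, had 1.35 in SK-Hep-1, against 22307 in Huh-7D12, 12432 in Hep3B and 9878 in HepG2. RBP4 (ENSG00000138207, chr10:93591687-93601744), the retinol carrier of plasma, had 1.35 in SK-Hep-1, against 6422 in Huh-7D12, 5635 in Hep3B and 5837 in HepG2, and the SD of the other 3 lines was 0.10 beside a log2 difference of -9.04. A1CF, an RNA-binding partner of the APOB editing enzyme, had 1.35 in SK-Hep-1, against 8536 in Huh-7D12, 5344 in Hep3B and 4086 in HepG2. Genes chosen by the moderated t, which favours a small spread among the other 3 lines, were of other kinds. MGAT4A and MAN1A1, enzymes of N-glycan processing, were both lower. MGAT4A had 0 in SK-Hep-1, against 2755 in Huh-7D12, 2934 in Hep3B and 2206 in HepG2. MAN1A1 had 259.8 in SK-Hep-1, against 14019 in Huh-7D12, 10887 in Hep3B and 13790.4 in HepG2. IQGAP2, a scaffold related to IQGAP1, had 1.35 in SK-Hep-1, against 2106 in Huh-7D12, 3024 in Hep3B and 2453 in HepG2. For RBP4, MGAT4A, MAN1A1 and IQGAP2 the other 3 lines lay close together, as the choice by t favours. AFP, the fetal plasma protein, had 17.5 in SK-Hep-1, against 612175 in Huh-7D12, 11949.8 in Hep3B and 216648 in HepG2, with a log2 SD of 2.94 among the other 3 lines. H19, an imprinted noncoding gene, had 0 in SK-Hep-1, against 1.08 in Huh-7D12, 136352 in Hep3B and 33.5 in HepG2. H19 met the rule on 1 read in Huh-7D12, and no fold is given for it. Of 23 measured microRNA host and long noncoding genes 4 were higher (17.4%) and 3 lower (13.04%), shares near those of all genes. UCA1 had 0 in SK-Hep-1, against 3319 in Huh-7D12, 9.79 in Hep3B and 18.1 in HepG2. The microRNA host gene MIR17HG had 61.9 in SK-Hep-1, against 197 in Huh-7D12, 432 in Hep3B and 177 in HepG2. MIR100HG was higher with 2607 in SK-Hep-1, against 27.1 in Huh-7D12, 27.6 in Hep3B and 1.39 in HepG2.

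The share of genes outside the range differed between chromosomes, and no test was made of it. On the X chromosome 126 of 423 genes that entered were higher in SK-Hep-1 (29.8%) and 29 lower (6.86%). Chromosome 9 stood at the other end, with 45 of 507 genes higher (8.88%) and 109 lower (21.5%), followed on the lower side by chromosome 4 with 18.5% and chromosome 6 with 17.3%. The share higher was smallest on chromosomes 16 (7.76%) and 14 (8.01%). The median log2 difference was 0.90 on X and -0.50 on chromosome 9, against 0.03 over all genes.

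**Figure D4:**
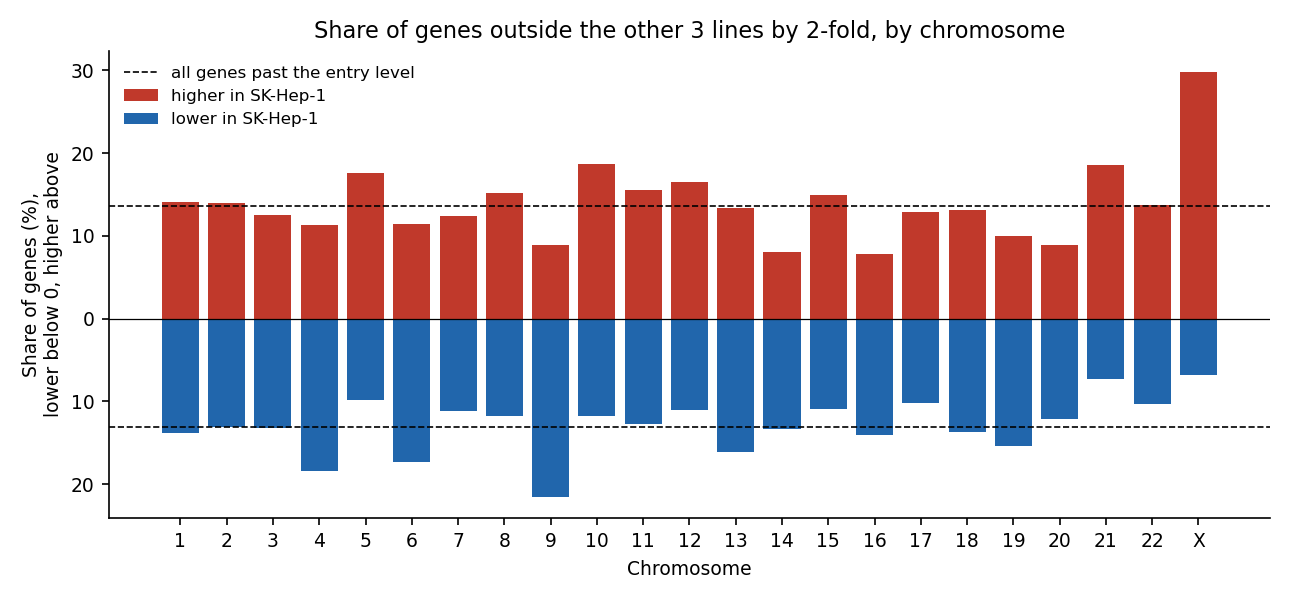
Share of genes past the entry level on each chromosome that lay outside the other 3 lines by 2-fold, in percent, with genes higher in SK-Hep-1 in red above 0 and genes lower in blue below it. The dashed lines mark 13.6% and 13.1%, the shares over all genes; X has the largest share higher (29.8%) and chromosome 9 the largest share lower (21.5%).

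Within chromosomes, 6 stretches held at least 4 neighbouring genes that were all lower with at most 3 reads in SK-Hep-1, counting only genes that entered. The longest row lay in the zinc finger cluster of chromosome 19, chr19:52336245-53496255 on GRCh38, where 24 consecutive genes from ZNF610 to ZNF813 had 0 reads in SK-Hep-1, against 7903 reads in Huh-7D12, 10484 in Hep3B and 4188 in HepG2 in sum. The genes on either side were read in SK-Hep-1: ZNF480 had 1036 in SK-Hep-1, against 1532 in Huh-7D12, 1313 in Hep3B and 828 in HepG2. ZNF331 had 246 in SK-Hep-1, against 251 in Huh-7D12, 610.0 in Hep3B and 343 in HepG2. Zinc finger genes of this cluster encode DNA-binding repressors, many of which act on transposable elements, and they are related in sequence. The second stretch, chr13:19633681-20903048, held 7 genes with 0 reads in SK-Hep-1, against 6380 reads in Huh-7D12, 7509 in Hep3B and 4125 in HepG2. It included ZMYM2, a transcriptional corepressor, with 0 in SK-Hep-1, against 1904 in Huh-7D12, 2386 in Hep3B and 1358 in HepG2. PSPC1, a protein of nuclear paraspeckles, had 0 in SK-Hep-1, against 1785 in Huh-7D12, 1732 in Hep3B and 964 in HepG2. The nuclear transport gene XPO4 had 0 in SK-Hep-1, against 1825 in Huh-7D12, 1429 in Hep3B and 1785 in HepG2. The next gene, LATS2, a kinase of the Hippo pathway, had 529 in SK-Hep-1, against 341 in Huh-7D12, 252 in Hep3B and 479.8 in HepG2. The values thus changed between one gene and the next at the edges shown.

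The third stretch, chr9:21802543-22455740, held MTAP, CDKN2A, CDKN2B-AS1, CDKN2B and DMRTA1, all with 0 reads in SK-Hep-1, against 2263 reads in Huh-7D12, 6648 in Hep3B and 1092 in HepG2. CDKN2A and CDKN2B encode inhibitors of the cell cycle kinases CDK4 and CDK6, and MTAP salvages methionine. MTAP had 0 in SK-Hep-1, against 1346 in Huh-7D12, 1562 in Hep3B and 1448 in HepG2, with little spread among the other 3 lines (a log2 SD of 0.11). CDKN2A had 0 in SK-Hep-1, against 357 in Huh-7D12, 3321 in Hep3B and 26.5 in HepG2, so that HepG2 was low for it as well. KLHL9, on one side, had 1127 in SK-Hep-1, against 470.1 in Huh-7D12, 955 in Hep3B and 675 in HepG2. The remaining 3 stretches were families of related genes: 4 zinc finger genes at chr19:21496682-22091480, 7 genes that are mostly UGT2B glucuronosyltransferases at chr4:68815993-70204576, and 6 histone genes at chr6:27808199-27865798. In the histone stretch SK-Hep-1 had 3 reads, against 19587 in Huh-7D12, 5616 in Hep3B and 25164 in HepG2. Neighbouring genes of these families can share reads, and DNA was not analysed here. These stretches were chosen after their values were seen.

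Among circRNAs, SK-Hep-1 had 1475 back-splice reads on the 145 loops higher in it, against 199 in Huh-7D12, 292 in Hep3B and 106 in HepG2. On the 136 loops lower in it there were 185 reads in SK-Hep-1, against 1758 in Huh-7D12, 1768 in Hep3B and 1219 in HepG2. These sums use the values by which the loops were chosen, so their direction is fixed by the rule. The 496 loops not outside the range by 2-fold had 1987 reads in SK-Hep-1, against 4072 in Huh-7D12, 3955 in Hep3B and 1909 in HepG2. Counts per loop were small, and the counting interval of the ratio to the nearest line lay wholly on one side of 1 for 52 of the 145 and 19 of the 136. Against 0 reads, the bound lay under 2-fold for 27 of the 145 and 69 of the 136. The median log2 difference over all 777 circRNAs that entered was -0.26. The back-splice junctions of the loops that the description turns on are shown 5′ to 3′, 15 bases of the last exon and 15 of the first, from GENCODE 29 transcripts on GRCh38, and the capitals mark the 8 bases that span the join.
circADAMTS6, exons 2 to 7: agttcttattaCTAGGTTAaaaaatggcca
circLPAR1, exons 2 to 3: atttcacagccCCAGGTGGacgtctgattt
circBABAM2, exons 5 to 7: acataccttctCAAGGGGAtatcattttca
circAXL, exons 5 to 6: cactgcaccctGCAGGGCTgaacaagacat
circSLC8A1, exon 1: gaatgatgaaaTTGTTAGGttgtgacagtt
circFGD6, exon 2: acatcagcattCCAGAGATaaagaagccac
circCRIM1, exons 2 to 4: tactttgccaaCAAGATGAgaactggactg
circNFATC3, exons 2 to 3: catcctgttgtGAAGATCTtgagccagatg
circNFATC3, exon 2: cacccctatatTTCGATCTtgagccagatg
circFNDC3B, exons 5 to 6: attcagacttgCAAGGTGAttgaagatagt
circABCD3, exons 2 to 10: gtcttccgaaaACTGTAAGaaaagtggaaa
circARHGAP5, exons 2 to 5: ttattgaagatACAGGAAGatgatccctat
Exon numbers refer to the transcript whose exon ends matched both ends of the loop. For SLC8A1 the matched transcript starts with this exon, so that exon 1 is its number in that transcript only. Another loop of SLC8A1, chr2:40428473-40430301, matched exon 2 of a different transcript. The 2 NFATC3 loops share the first base of exon 2, so that the right sides of their junctions are the same and the left sides differ.

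Most of the abundant loops higher in SK-Hep-1 came from genes that were themselves higher. The ADAMTS6 loop (chr5:65451475-65473952, minus strand), from the gene of a secreted metalloprotease, had, in normalized back-splice reads, 109 in SK-Hep-1, against 1.08 in Huh-7D12, 0 in Hep3B and 1.39 in HepG2, and was 78.2-fold (13.6 to 3126) higher. Its host gene had 3529 in SK-Hep-1, against 141 in Huh-7D12, 52.5 in Hep3B and 116 in HepG2. The 2-exon loop of LPAR1 (chr9:110972073-110973558, minus strand), the gene of a lysophosphatidic acid receptor, had 88.8 in SK-Hep-1, against 1.08 in Huh-7D12 and 0 in Hep3B and HepG2, and its host had 5625 in SK-Hep-1, against 37.9 in Huh-7D12, 4.45 in Hep3B and 0 in HepG2. The AXL loop (chr19:41230967-41231298, plus strand) had 41.7 in SK-Hep-1, against 0 in Huh-7D12, Hep3B and HepG2, and the loop of SLC8A1 (chr2:40428473-40430304, minus strand), which encodes a sodium and calcium exchanger, had 39.04 in SK-Hep-1, against 0 in Huh-7D12, Hep3B and HepG2. These 4 loops had at most 1 read in each other line. The FGD6 loop (chr12:95208843-95211267, minus strand), from the gene of an activator of the GTPase CDC42, was the most abundant in SK-Hep-1 among all loops higher in it, with 119.8 in SK-Hep-1, against 27.1 in Huh-7D12, 56.1 in Hep3B and 15.3 in HepG2, and was 2.14-fold (1.53 to 2.998) higher.

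CRIM1, which encodes a transmembrane protein that binds BMPs, gave 6 loops that entered, and all 6 were higher in SK-Hep-1. Over all loops that entered, 18.7% were higher. The one from exons 2 to 4 (chr2:36396614-36442735, plus strand) had 25.6 in SK-Hep-1, against 4.33 in Huh-7D12, 0.890 in Hep3B and 1.39 in HepG2, and the host gene had 11882 in SK-Hep-1, against 1157 in Huh-7D12, 352 in Hep3B and 3607 in HepG2. All 3 loops of LPAR1 and all 3 of CDK17, a cyclin-dependent kinase gene, were higher too, and the CDK17 loops had between 5 and 7 reads in SK-Hep-1 and 0 in the other lines. A loop that reached 6 only in SK-Hep-1, with few or no reads elsewhere, is higher by its entry. Entry thus fixed the direction of the CDK17 loops. The counts of loops per host follow in part from the entry level and are no separate result about these genes. Members that share a host gene are not independent of each other.

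The loops of LINC00632 and SAMD3 had at most 1 read in each other line. The loop of the long noncoding gene LINC00632 (chrX:140783175-140784659, plus strand) spans CDR1, which is annotated on the other strand, and by its position it is the circRNA known as CDR1as or ciRS-7, which holds many sites for miR-7. It had 24.2 in SK-Hep-1, against 1.08 in Huh-7D12 and 0 in Hep3B and HepG2, and its host had 880.3 in SK-Hep-1, against 6.50 in Huh-7D12, 0 in Hep3B and 2.79 in HepG2. The SAMD3 loop (chr6:130311291-130313093, minus strand) had 25.6 in SK-Hep-1, against 0 in Huh-7D12, Hep3B and HepG2, and its host had 176 in SK-Hep-1, against 0 in Huh-7D12, Hep3B and HepG2. PSD3 and CORO1C also gave abundant higher loops, though with reads in all 4 lines: that of CORO1C, an actin-binding coronin, had 33.7 in SK-Hep-1, against 5.42 in Huh-7D12, 10.7 in Hep3B and 2.79 in HepG2, and was 3.15-fold (1.52 to 6.88) higher.

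The loops lower in SK-Hep-1 were led by NFATC3, the gene of a calcium-responsive transcription factor. Its loop of exons 2 and 3 (chr16:68121987-68126610, plus strand) had 53.8 in SK-Hep-1, against 166 in Huh-7D12, 135 in Hep3B and 304 in HepG2, and was 2.51-fold (1.76 to 3.66) lower. That of exon 2 alone (chr16:68121987-68123121, plus strand) had 14.8 in SK-Hep-1, against 54.2 in Huh-7D12, 51.6 in Hep3B and 155 in HepG2. The host gene had 391.7 in SK-Hep-1, against 1073 in Huh-7D12, 961 in Hep3B and 2813 in HepG2, so that HepG2 was the highest line for the loops and for the gene, and SK-Hep-1 the lowest. The loop of FNDC3B exons 5 and 6 (chr3:172247533-172251541, plus strand) had 13.5 in SK-Hep-1, against 81.2 in Huh-7D12, 73.02 in Hep3B and 50.2 in HepG2. Of the 6 loops of that gene that entered 4 were lower, beside 17.5% of all loops, and 3 of them had 0 reads in SK-Hep-1. Among these 3, the loop of exons 2 and 3 had 2.17 in Huh-7D12, its nearest line. That of exons 6 to 9 had 1.39 in HepG2, its nearest line. Both values are below 4.04, the worth of 3 reads in SK-Hep-1, so no fold is given. GPC3, the gene of the oncofetal proteoglycan glypican 3, had 0 reads in SK-Hep-1 as gene and as loop. Its loop at chrX:133985275-133985523, minus strand had 0 in SK-Hep-1, against 9.75 in Huh-7D12, 21.4 in Hep3B and 41.8 in HepG2, and its host had 0 in SK-Hep-1, against 9215 in Huh-7D12, 12830.5 in Hep3B and 21545 in HepG2. The loop of ABCD3 (chr1:94458607-94483239, plus strand), from the gene of a peroxisomal transporter, had 0 in SK-Hep-1, against 53.1 in Huh-7D12, 17.8 in Hep3B and 50.2 in HepG2, and was at least 4.41-fold lower. Its host was lower too, with 863 in SK-Hep-1, against 4145 in Huh-7D12, 2987 in Hep3B and 2846.5 in HepG2, at 3.30-fold (3.02 to 3.61).

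Host genes were compared by the rule used for all genes. Among 141 higher loops with a single host gene, the host was higher by the same rule for 77 (54.6%) and lower for 2, beside 13.5% with a higher host among all 734 loops that entered with a single host. Among 128 lower loops the host was lower for 42 (32.8%) and higher for 1, beside 12.1%. The shares 54.6% and 32.8% were not tested against each other. The median log2 difference of the host genes was 1.65 for higher loops and -0.83 for lower loops, against -0.07 for all. At an entry level of 12 in place of 6, the shares were 84.1% for 44 higher loops, beside 17.2% of all 250 loops with a single host, and 35.1% for 57 lower ones, beside 13.2%. Loops of one host share their gene value, and the 141 came from 115 host genes and the 128 from 110.

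**Figure D5:**
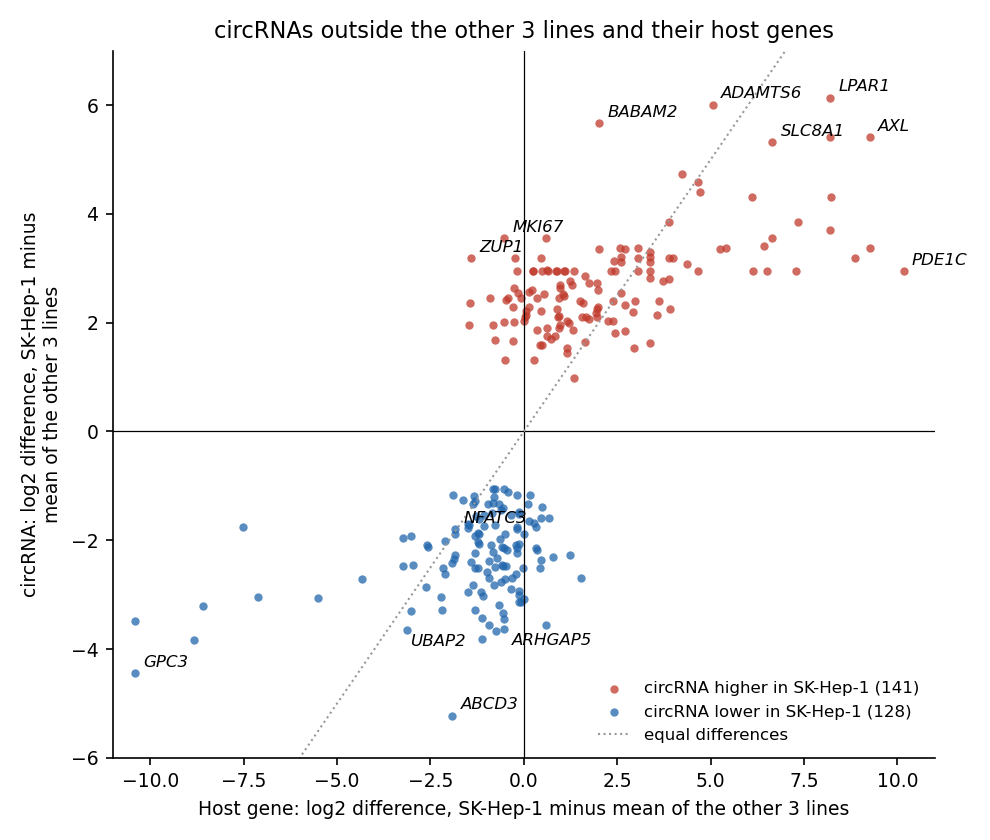
Log2 difference between SK-Hep-1 and the mean of the other 3 lines for each circRNA outside the range (vertical axis, pseudocount 1) and for its host gene (horizontal axis, pseudocount 10). Red points are the 141 loops higher in SK-Hep-1 and blue points the 128 lower ones that have a single host, and the dotted line marks equal differences; ADAMTS6 lies near that line, while BABAM2 and ABCD3 differ more as circRNA than as gene.

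Some loops differed more than the host gene, where it did not, or the other way. The BABAM2 loop (chr2:27987993-28045799, plus strand), from the gene of a subunit of the BRCA1-A complex, had 49.8 in SK-Hep-1, against 0 in Huh-7D12, Hep3B and HepG2, while the host gene had 1077 in SK-Hep-1, against 201 in Huh-7D12, 192 in Hep3B and 455 in HepG2. The host was thus higher too, at 2.37-fold, but the other 3 lines expressed it without a read of this loop. The RNF13 loop (chr3:149846011-149921227, plus strand), from the gene of a ubiquitin ligase, had 43.1 in SK-Hep-1, against 3.25 in Huh-7D12, 16.9 in Hep3B and 15.3 in HepG2, while its host, not outside by 2-fold, had 1696 in SK-Hep-1, against 414 in Huh-7D12, 1152 in Hep3B and 916 in HepG2. A loop of MKI67, which encodes the proliferation antigen Ki-67, had 10.8 in SK-Hep-1, against 0 in Huh-7D12, Hep3B and HepG2, while the host had 2124 in SK-Hep-1, against 3549.7 in Huh-7D12, 2337 in Hep3B and 3520.1 in HepG2, and was not outside the range by 2-fold. A loop of ZUP1, a deubiquitinase gene, had 8.08 in SK-Hep-1, against 0 in Huh-7D12, Hep3B and HepG2, and its host, lower in SK-Hep-1, had 219 in SK-Hep-1, against 609.8 in Huh-7D12, 597 in Hep3B and 586 in HepG2. The MKI67 and ZUP1 loops rest on 8 and 6 reads. On the lower side the ARHGAP5 loop (chr14:32090502-32117287, plus strand), from the gene of a GTPase-activating protein, had 1.35 in SK-Hep-1, against 19.5 in Huh-7D12, 21.4 in Hep3B and 51.6 in HepG2, and was 14.5-fold (2.29 to 604) lower, while the host had 3126 in SK-Hep-1, against 3318 in Huh-7D12, 3418 in Hep3B and 8195 in HepG2. A loop of UBAP2 (chr9:33953285-33963791, minus strand) had 1.35 in SK-Hep-1, against 21.7 in Huh-7D12, 32.9 in Hep3B and 26.5 in HepG2, while its host had 735 in SK-Hep-1, against 977 in Huh-7D12, 1881 in Hep3B and 1508 in HepG2. A loop of PHC3 (chr3:170145423-170149244, minus strand), from the gene of a Polycomb subunit, had 12.1 in SK-Hep-1, against 29.2 in Huh-7D12, 34.7 in Hep3B and 44.6 in HepG2, and was 2.41-fold (1.10 to 5.83) lower, while its host had 1649 in SK-Hep-1, against 2032 in Huh-7D12, 1684 in Hep3B and 1717 in HepG2. The 4 host values of PHC3 lay close together. That of ARHGAP12 (chr10:31908172-31910563, minus strand), another gene of a GTPase-activating protein, had 12.1 in SK-Hep-1, against 46.6 in Huh-7D12, 55.2 in Hep3B and 32.1 in HepG2, while its host had 2062 in SK-Hep-1, against 1094 in Huh-7D12, 1639 in Hep3B and 2450.4 in HepG2. For ARHGAP5 and UBAP2 the loop was present in all 3 other lines and rested on 1 read in SK-Hep-1, and neither host gene was outside the range by 2-fold.

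Higher loops spanned more of the genome than lower ones, with medians of 11.97 kb for the 145 higher loops, 6.93 kb for the 136 lower ones and 7.67 kb for the 496 others. Both ends lay at annotated exon ends for 121 of 141 higher and 120 of 128 lower loops with a single host. Among these the median was 4 exons for higher and 3 for lower loops, 10 and 19 had a single exon, and 39 and 62 began at the second exon. No test was made of these differences, since loops of one gene are not independent.

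Of 40 measured genes of proteins that form or remove circRNAs, 3 were higher (7.50%) and 5 lower (12.5%), with a median of -0.62, shares at or below those of all genes. RBFOX2, a splicing regulator, had 5940.3 in SK-Hep-1, against 1614 in Huh-7D12, 1582 in Hep3B and 1495 in HepG2, and was 3.68-fold (3.47 to 3.91) higher. ADARB1, an RNA-editing enzyme, was 2.28-fold (1.90 to 2.75) higher. RBM20, a splicing regulator of muscle genes, had 187 in SK-Hep-1, against 1.78 in Hep3B and 0 in HepG2 and Huh-7D12. MBNL3 (ENSG00000076770, chrX:132369317-132489968), of the muscleblind family of splicing regulators, had 26.9 in SK-Hep-1, against 11478 in Huh-7D12, 20842 in Hep3B and 15026 in HepG2, and was 426-fold (276 to 698) lower. The lower members also included ESRP2, described above, and XPO4, of the stretch on chromosome 13. TIA1, an RNA-binding protein gene, had 779 in SK-Hep-1, against 1856 in Huh-7D12, 2361 in Hep3B and 2354 in HepG2. The part of these genes in the loop differences was not tested.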

How the data were processed

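RNA of 4 liver cancer lines was depleted of ribosomal RNA with Ribo-Zero, built into strand-specific libraries without poly(A) selection and read in pairs on a HiSeq 2500, per the labels' protocols. Reads were aligned with STAR 2.6.1d to hg38, per the submitters' processing notes, and the sources used here do not name the circRNA caller, the gene counter, the annotation or the normalization. The authors deposited a normalized signal per gene and per back-splice junction, on a linear scale. Multiplying by 1 factor per library turned 100% of the values above 0 into whole reads (tolerance 0.001), with 1 read worth 1.35 in SK-Hep-1, 1.08 in Huh-7D12, 0.890 in Hep3B and 1.39 in HepG2. The same factors held for genes and circRNAs, and 4473 circRNAs had no read in any line. Empty circRNA cells were taken as 0.

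All 29670 gene IDs matched GENCODE 29, which gave names, positions and exons on GRCh38. Junction sequences were cut from its transcripts. Folds were computed to the nearest of the other 3 lines, with exact 95% intervals of the ratio of reads that cover counting error only, and against a floor of 3 reads per library where a library had 0. Log2 differences used a pseudocount of 10 for genes and 1 for circRNAs. Named genes were, per direction, the 12 with the largest fold, the 12 with the largest moderated t, the 6 with the highest value and up to 6 of each of 26 lists. For circRNAs they were the 12 largest values, the 6 that differed most from the host gene and loops of named genes. Not all genes chosen so are described. Members and lists were chosen with earlier results of these data known, and some genes stand in more than 1 list.

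Limma 3.58.1 with a mean trend was run over the 12835 genes that entered, with Benjamini-Hochberg adjustment, and edgeR 4.0.16 and DESeq2 1.42.0 were run on the recovered reads as alternatives, of which edgeR called 0 genes and DESeq2 613 higher and 1221 lower at an adjusted p under 0.05. Their p-values measure how far 1 library lies from the spread of 3 different lines. The fits were also run on simulated data, in which the other 3 lines shared 1 mean per gene, as replicates would. The real lines differ from each other, so the simulation cannot show how the fits behave here. Python 3.11.15, numpy 2.4.6, pandas 2.3.3, scipy 1.17.1, matplotlib 3.10.9 and R 4.3.3 were used. Alternatives covered the fold, entry level, scaling, pseudocount, test and leaving out each line.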

Additional observations from a re-analysis of the deposited data

How the results depend on the processing

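None of the 228 named genes met the rule in the opposite direction under the alternatives run. Their choice as members leaves almost no room for that, so it is no support for them. The balance of higher and lower counts changed with the setting. At 4-fold, 944 genes were higher and 1029 lower, and 85 circRNAs were higher and 85 lower, 0 reads included. Leaving out 1 of the 3 other lines gave 2037 to 2217 genes higher and 1843 to 2101 lower, and 158 to 178 circRNAs higher and 141 to 206 lower, the last without HepG2. CircRNA counts at other entry levels were 465 higher and 262 lower at 3, and 46 and 60 at 12. Keeping only circRNAs whose counting interval excluded 1, an alternative chosen after seeing the data, left 52 and 19. The count of higher genes past limma was 219 with a pseudocount of 1 and 1042 with no entry level. edgeR gave 0 and 0, DESeq2 613 and 1221, and limma without any 1 line 0 to 0 in both directions (unadjusted counts are given above), so that the 3 tools did not call the same number. The share of higher loops with a higher host was 84.1% at an entry level of 12 (17.2% of all loops). With the host set against the mean of the 3 lines, 43.8% of lower loops had a lower host (18.1% of all loops) and 61.7% of higher loops a higher one (18.4% of all loops). Equal totals outside mitochondrial genes shifted the median gene by -0.17, to -0.14, and gave 1518 genes higher and 1873 lower, where PRAME, RPL30, RPL4 and TSPAN4 were no longer outside by 2-fold; median-of-ratios scaling shifted it by -0.03, to -0.0026. Of 228 named genes, 28 left their group under a setting other than 4-fold. With 10 added to each value these were ACOX2, ADAMTS9, CLDN4, FGFR2, FOS, H19, HEY1, S100A14, S100A4, S100P, TAL1 and UCA1, and at an entry level of 200 EFNA2, GLI2, HEY1, ITGB3, PGF, PLG, RBM20, ROR2, SNAI1, TAL1, TSPAN7 and TWIST1. No longer past the entry level or the 2-fold limit were FGFR2, H19 and S100A14 without Hep3B, CLDN4 and CYGB without HepG2, and HEY1, LCP1, PLG, S100A4, TAL1 and UCA1 without Huh-7D12. No paired analysis was possible because each line has 1 library and no number pairs them. Depth limits the circRNAs most, since 74 of the 136 lower loops rest on 0 reads in SK-Hep-1.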

Other observations

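Genes higher in SK-Hep-1 also lay in rows. Counting only genes that entered, 7 stretches held at least 6 neighbouring genes that were all higher. They and the genes named here were chosen after their values were seen. In the MHC region, chr6:32190766-32969094 on GRCh38, 10 consecutive genes were higher. They included genes of MHC class II, which presents peptides from outside the cell, and of the machinery that loads MHC class I. HLA-DRA had 4520.2 in SK-Hep-1, against 1.08 in Huh-7D12, 0 in Hep3B and 1.39 in HepG2, HLA-DRB1 had 1765 in SK-Hep-1, against 0 in Huh-7D12, Hep3B and HepG2, and HLA-DMA, which helps load class II, had 452 in SK-Hep-1, against 8.67 in Huh-7D12, 25.8 in Hep3B and 8.37 in HepG2. The peptide transporter gene TAP1 had 1073 in SK-Hep-1, against 57.4 in Huh-7D12, 23.2 in Hep3B and 384 in HepG2, and the immunoproteasome subunit genes PSMB8 and PSMB9 were higher too, with PSMB9 at 808 in SK-Hep-1, against 9.75 in Huh-7D12, 3.56 in Hep3B and 87.9 in HepG2. Reads of HLA-DRB1 and HLA-DRB5 may be shared between these similar genes. On chromosome 10, chr10:88990582-89421001 held FAS, which encodes a death receptor, LIPA and 4 IFIT genes of the interferon response, of which IFIT5 had 976 in SK-Hep-1, against 200.4 in Huh-7D12, 13.4 in Hep3B and 239.9 in HepG2.

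On chromosome 22, the stretch chr22:38818452-39087743 held 4 genes of APOBEC3 cytidine deaminases. APOBEC3G had 639 in SK-Hep-1, against 3.25 in Huh-7D12, 0 in Hep3B and 32.1 in HepG2, and APOBEC3C had 1639.5 in SK-Hep-1, against 16.2 in Huh-7D12, 9.79 in Hep3B and 671 in HepG2, so that HepG2 also expressed APOBEC3C. These paralogs can share reads. On chromosome 11, ETS1 and FLI1 lay in a row of 6 with SENCR, a noncoding gene antisense to FLI1, which had 160.2 in SK-Hep-1, against 0 in Huh-7D12, Hep3B and HepG2. On chromosome 10, PFKP, an isoform of phosphofructokinase, had 6979 in SK-Hep-1, against 1.08 in Huh-7D12, 0 in Hep3B and 119 in HepG2, beside KLF6 with 3678 in SK-Hep-1, against 600.1 in Huh-7D12, 887 in Hep3B and 1618 in HepG2. By gene type, 70 of 280 lincRNA genes that entered were higher (25%) and 49 lower (17.5%), beside 13.3% and 12.6% of 11903 protein-coding genes. Of 217 antisense genes, 30 were higher (13.8%) and 51 lower (23.5%).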
